A study of Mus musculus with 9 samples.

Results

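*Actb* and *Tuba1b* encode the beta-actin and an alpha-tubulin of the cytoskeleton, and their levels were compared in the hearts of 3 groups of mice. The members were the 2 probes printed 20 times per array whose transcript identifiers were NM_007393 (*Actb*) and NM_011654 (*Tuba1b*), among 15 such reference-gene probes and 59709 probes in all. Other probes of these genes could not be named, since the files pair most probes with no gene.

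Cardiac tissue RNA was measured on 9 arrays for messenger and long non-coding RNAs, 3 per group. The WT group carried the strain label B6SV129F1 wild-type, with no operation named. The TAC mice were of that strain too and underwent what the labels call TAC surgery, in heart studies usually transverse aortic constriction, a narrowing of the aorta that loads the left ventricle with pressure. The CnA arrays bore Myh6-CnA as their strain, a name used for mice in which the promoter of the cardiac myosin heavy chain gene *Myh6* drives the phosphatase calcineurin A in heart muscle cells. The strain of the CnA group differed by label from that of both other groups, so that the transgene and any other difference of strain cannot be told apart. The labels give no sham operation, age, sex or line for any group, and nothing says that arrays came from separate animals. P-values therefore measure only the spread between these arrays, which may be technical.

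Beta-actin is a non-muscle actin that polymerises into the filaments of the cell cortex and of stress fibres, whereas the thin filaments of the adult cardiac sarcomere are built mostly of other actins. Alpha-tubulin pairs with beta-tubulin, and the pairs polymerise into microtubules, which carry cargo and stiffen cells, and a denser microtubule network is a known feature of the pressure-loaded heart. Both genes are widely used as references in expression measurements, on the assumption that their level is steady. None of the 57 other actin, tubulin and cytoskeleton genes listed for this comparison had a probe that could be named, nor did any of 6 hypertrophy genes or of 28 markers of cardiac cell types. The labelled tissue was therefore not checked against its markers here.

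The arrays differed in brightness between groups. The 75th percentile of all probes was 427.3 to 454.3 intensity units in WT, 262.5 to 279.5 in TAC and 283.0 to 300.2 in CnA. Values below are log2 of the signal minus the log2 of that percentile on the same array, called scaled log2 signals, unless stated otherwise. Replicate arrays correlated across probes with a Pearson r of 0.972 to 0.994. The tests were fitted with limma on all 44224 probes detected in at least 1 group, and calls were made at 0.05 after Benjamini-Hochberg adjustment over these probes.

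*Actb* was lower in both disease models than in WT and lower in CnA than in TAC, except when arrays were scaled by single reference genes, where *Hsp90ab1*, *Tbp* and *Nono* turned the direction in TAC, *Hsp90ab1* that in CnA and *B2m* that between the models. Its scaled log2 signal on WT replicates 1, 2 and 3 was 5.69, 5.65 and 5.52. On the TAC arrays it was 5.08, 5.06 and 5.16, and on the CnA arrays 4.64, 4.63 and 4.55. The 3 groups formed 3 separate levels with no overlap. All arrays of one group below all of another was seen for 22.5% of the tested probes in TAC relative to WT, 22.3% in CnA relative to WT and 24.2% in CnA relative to TAC. In the bulk tissue, fewer cells that express a gene and less of its RNA per cell cannot be told apart.

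The fall of *Actb* in TAC was 1.43-fold, from 5.62 ± 0.09 in WT to 5.10 ± 0.05 (SD, n = 3), which is -0.52 on the log2 scale, standard error 0.09 (limma, adjusted p = 0.00153). In CnA it was 2.02-fold, to 4.60 ± 0.05, which is -1.02 on the log2 scale, standard error 0.09 (limma, adjusted p = 4.65e-05). CnA differed from TAC by -0.50 on the log2 scale, with a 95% confidence interval of -0.71 to -0.28 (limma, adjusted p = 0.00798). This last call was lost when the row of the slide was a block (limma, adjusted p = 0.0855) and when the error was taken from WT only (limma, adjusted p = 0.171), and its adjusted p ranged from 0.000852 to 0.495 over all alternatives.

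Changes were common on these arrays, and a call alone does not set *Actb* apart. Relative to WT, 60.1% of the tested probes were called in TAC and 56.8% in CnA, in each case with 20.5% called lower. For CnA relative to TAC 17.4% were called, 6.89% lower and 10.5% higher. The share of tested probes with a lower change than *Actb* was 19.9% for TAC, 11.7% for CnA and 11.4% between the models. In size, 56.0% of the tested probes changed by more than *Actb* in TAC, in either direction. Over all tested probes the median change on the log2 scale was 0.32 in TAC and 0.22 in CnA, and relative to it *Actb* lay at -0.84 and -1.24.

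*Tuba1b* was higher in both models than in WT, with the largest rise of the 15 reference-gene probes. On the WT arrays its scaled log2 signal was 7.74, 7.07 and 6.97. It reached 8.96, 9.00 and 9.09 on the TAC arrays, and 8.77, 8.75 and 8.77 on the CnA arrays. WT replicate 1 stood above both other WT arrays, by more than any other replicate of either probe, and was still below every array of the models. The TAC values lay just above the CnA values, and these groups did not overlap either. All 3 arrays above all 3 of WT was seen for 46.6% of the tested probes in TAC and 40.1% in CnA. All 3 of CnA below all 3 of TAC, as for *Tuba1b*, was seen for 24.2%, and all 3 of CnA above all 3 of TAC for 21.9%.

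From 7.26 ± 0.42 in WT, *Tuba1b* rose to 9.02 ± 0.06 in TAC (SD, n = 3), by 1.76 on the log2 scale, standard error 0.19, or 3.38-fold (limma, adjusted p = 9.0e-05). It rose to 8.77 ± 0.01 in CnA, by 1.51 on the log2 scale, or 2.84-fold (limma, adjusted p = 0.000252). The call in CnA was lost with the row of the slide as a block, at 1.43 (limma, adjusted p = 0.0544, with a range of 2.32e-06 to 0.0544 over all alternatives). The difference between CnA and TAC, -0.25, was not called (limma, adjusted p = 0.404). Its 95% confidence interval of -0.68 to 0.18 includes shifts in either direction. That interval uses a spread pooled over the 3 groups, to which WT, with its SD of 0.42, gave the most. The standard error was 0.19, against 0.07 in a fit of CnA and TAC alone. The same -0.25 was called in a fit of both groups alone (limma, adjusted p = 0.0456) and without WT replicate 1 (limma, adjusted p = 0.0403), and its adjusted p ranged up to 0.942 over all alternatives.

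Relative to WT, 39.6% of the tested probes were called higher in TAC and 36.2% in CnA. *Tuba1b* lay in the upper tail of these changes, above 96.7% of the tested probes in TAC and above 93.8% in CnA. Relative to the median of all tested probes its change was 1.44 in TAC and 1.29 in CnA. This distance depended on the scaling. With quantile normalization *Tuba1b* was at 0.89 in TAC and 0.91 in CnA, against medians of 0.22 and 0.11. Over the 3 groups the level differed for *Tuba1b* (limma F test, adjusted p = 0.000148) and for *Actb* (limma F test, adjusted p = 9.4e-05), as it did for 64.3% of the tested probes.

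**Figure D1:**
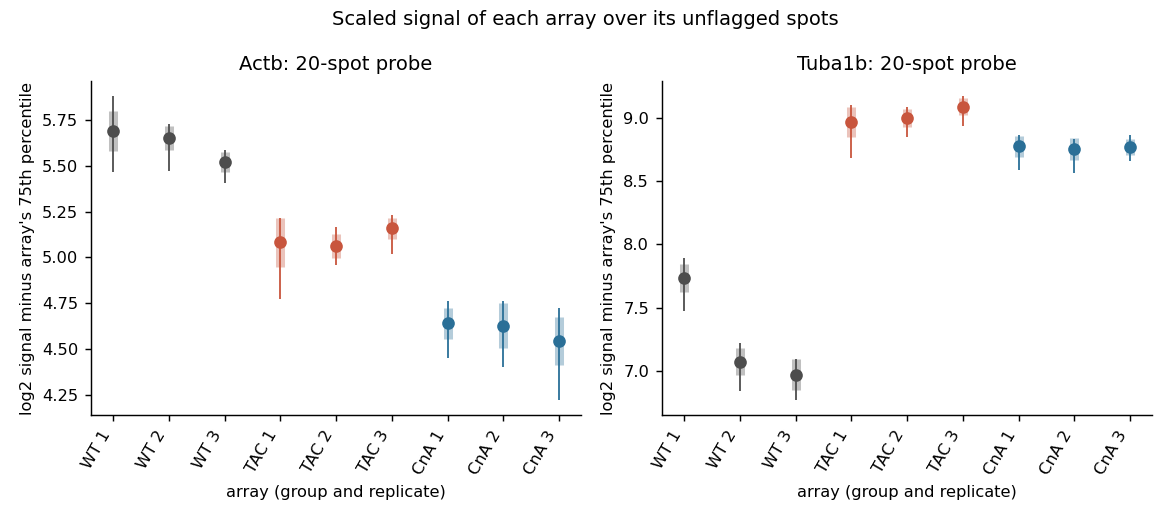
Scaled log2 signal of the *Actb* probe (left) and the *Tuba1b* probe (right) on each of the 9 arrays, where points are means over unflagged spots, thick bars are 1 SD of the spots and thin lines run from the lowest to the highest spot. *Actb* steps down from WT to TAC to CnA, and *Tuba1b* is above WT on all 6 arrays of the models.

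**Figure D2:**
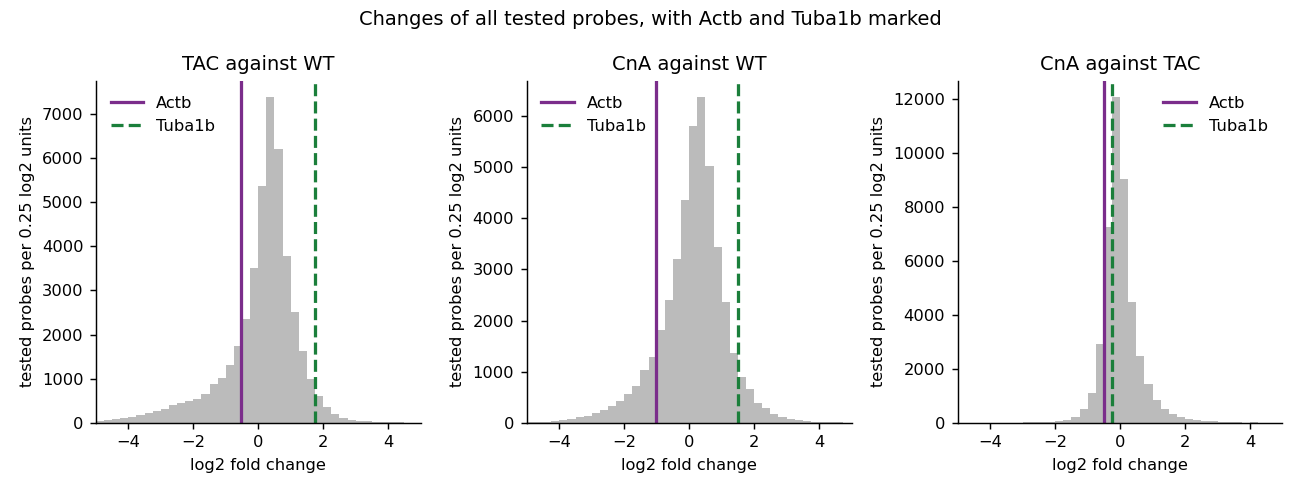
Histograms of the log2 fold changes of the 44224 tested probes in the 3 comparisons (x axis, changes beyond the plotted range are left out of view; y axis, probes per bin), with the *Actb* change as a solid line and the *Tuba1b* change as a dashed line. *Actb* lies on the lower flank in each comparison, and *Tuba1b* lies in the upper tail against WT and near the centre in CnA against TAC.

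Unscaled signals gave the same order for *Actb*. Its geometric mean over spots was 20860 to 22332 intensity units on the WT arrays, 8893 to 9474 on the TAC arrays and 7009 to 7067 on the CnA arrays. *Tuba1b* was at 91082, 59732 and 56980 on the WT arrays, against 131101 to 144325 in TAC and 123319 to 131157 in CnA. Its TAC and CnA ranges overlapped without scaling, unlike the scaled values. Without scaling, the median change of all tested probes was -0.40 in TAC and -0.39 in CnA, and the log2 fold changes of *Actb* were -1.24 in TAC and -1.63 in CnA, and those of *Tuba1b* 1.04 and 0.90.

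The spots of each probe gave a second view of the measurement error. All 180 spot values of *Actb* and all 180 of *Tuba1b* were well above background and none was saturated. After outlier flags 169 and 173 of them were used. The raw signal was 267 to 830 times the local background for *Actb* and 2232 to 5678 times for *Tuba1b*, and with normexp background correction *Actb* was at -0.63 in TAC and -1.10 in CnA and *Tuba1b* at 1.66 and 1.43. The SD of the spots of an array was 0.05 to 0.13 log2 units for *Actb* and 0.06 to 0.12 for *Tuba1b*, and the standard error of an array's mean over its spots was at most 0.03 for both.

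Even single spots separated most groups. The lowest of 55 WT spots of *Actb*, at 5.41, was above the highest of 56 TAC spots, at 5.23, and the highest of 58 CnA spots, at 4.76, was just below the lowest TAC spot, at 4.78. For *Tuba1b* the highest of 59 WT spots, at 7.89, was below the lowest TAC spot, at 8.68, and below the lowest CnA spot, at 8.56. The *Tuba1b* spots of CnA and TAC overlapped, with 6 of 56 TAC spots at or below the highest CnA spot. Spots of an array share their RNA and are not replicates of a group.

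The change was alike across the printed positions. At the 19 positions with unflagged *Actb* spots in both WT and TAC, the log2 difference ran from -0.60 to -0.46, and in CnA against WT from -1.12 to -0.92. At all 20 *Tuba1b* positions it ran from 1.70 to 1.95 in TAC and from 1.40 to 1.70 in CnA. CnA was below TAC at all 20 positions of either probe, by -0.59 to -0.43 for *Actb* and by -0.31 to -0.11 for *Tuba1b*. Positions are spots of the same arrays, so they largely repeat the difference of the array means and are not replicates of a group. For *Tuba1b* that difference was not called (limma, adjusted p = 0.404). The pattern of bright and dim positions tended to repeat between arrays, with a median Pearson r over positions of 0.63 for *Actb* and 0.70 for *Tuba1b* across pairs of arrays.

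A direct reading of the unequal changes comes from the difference between the probes on the same array. No single scaling factor per array can alter this difference. Its size on 1 array has no meaning, since probes differ in how they bind, but its shift between groups does. *Tuba1b* minus *Actb* was 2.05, 1.42 and 1.45 log2 units on the WT arrays. It was 3.88, 3.94 and 3.93 on the TAC arrays and 4.13, 4.13 and 4.23 on the CnA arrays. The 3 groups did not overlap, and both models were far above WT. How often other pairs of probes separate in this way was not counted. Among single tested probes, 46.6% had all TAC arrays above all WT arrays, and 40.1% had all CnA arrays above them.

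WT arrays had a mean difference of 1.64 ± 0.35, TAC arrays 3.92 ± 0.03 and CnA arrays 4.16 ± 0.06 (SD, n = 3). It was larger by 2.28 log2 units in TAC than in WT, a 4.85-fold shift of *Tuba1b* relative to *Actb*, and by 2.52, or 5.75-fold, in CnA. The shift from TAC to CnA was 0.25, a 1.19-fold change, but 0.42 under quantile normalization and 0.43 with normexp as well. In each of these 3 comparisons the two-sided exact permutation p was 0.10, also after Benjamini-Hochberg adjustment, which is the smallest that 3 against 3 arrays allow. Over the 3 groups together the exact permutation test gave p = 0.00357, the smallest value that its 1680 arrangements can give. The shift shows unequal change of the probes and does not say which of them moved.

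**Figure D3:**
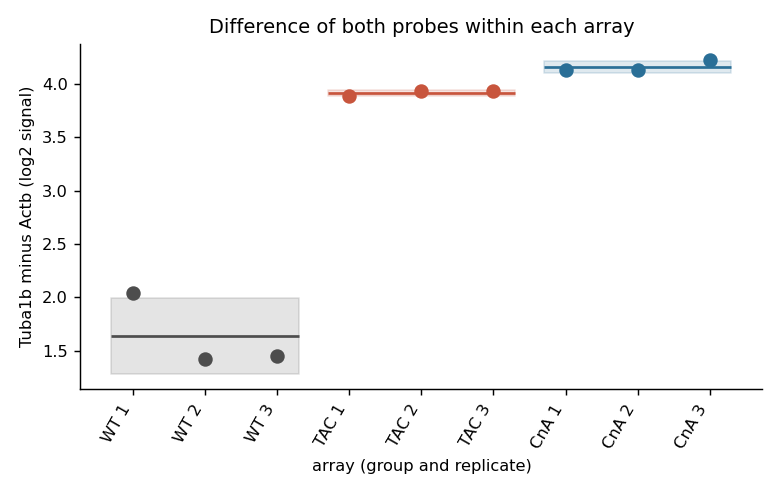
*Tuba1b* minus *Actb* in log2 signal on each of the 9 arrays (points), with the mean of each group (line) and 1 SD around it (band). The 3 WT arrays lie between 1.42 and 2.05, the TAC arrays between 3.88 and 3.94 and the CnA arrays between 4.13 and 4.23.

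Under the 9 scalings by many probes or none, the size of each change varied and its direction relative to WT did not. Quantile normalization gave *Actb* log2 fold changes of -1.04 in TAC and -1.44 in CnA (limma, adjusted p = 2.99e-05 and 7.29e-06), and *Tuba1b* changes of 0.89 and 0.91 (limma, adjusted p = 0.00051 and 0.000511). With the mean of the other 13 reference-gene probes as the scale, *Actb* in TAC was at -0.28 (limma, adjusted p = 0.0159) and *Tuba1b* at 2.00. Between CnA and TAC the *Tuba1b* difference was 0.018 under quantile normalization (limma, adjusted p = 0.942), whereas that of *Actb* was -0.40 (limma, adjusted p = 0.0162).

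Scaling by 1 other reference gene at a time, given as values with no test, left *Tuba1b* above WT with all 13 genes in either model, by 0.93 to 4.65 in TAC and 0.75 to 2.95 in CnA. *Actb* was below WT with 10 of 13 in TAC and with 12 of 13 in CnA. The exceptions in TAC were *Hsp90ab1*, *Tbp* and *Nono*, which gave 2.37, 1.07 and 0.52, and the exception in CnA was *Hsp90ab1*, at 0.42. These 3 probes were themselves called lower in both models. Between CnA and TAC, *Actb* was lower with 12 of 13, the exception being *B2m*, at 0.35. The 13 are not equally sound as scales: *Ldhal6b* was the dimmest, at 42.8 to 62.0 intensity units over all arrays.

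**Figure D4:**
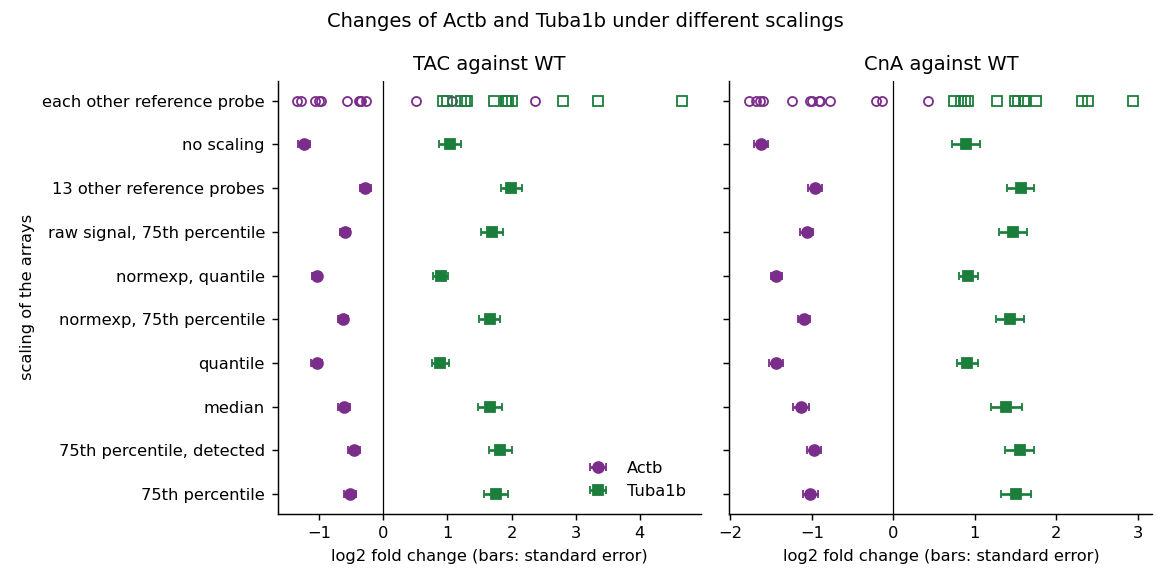
Log2 fold changes of *Actb* (circles) and *Tuba1b* (squares) in TAC against WT (left) and CnA against WT (right) under 9 scalings of the arrays, with standard errors as bars, and in the top row, as open symbols without error, after scaling by each of the 13 other reference genes. *Actb* is below 0 and *Tuba1b* above 0 under all 9 scalings, and in the top row *Actb* crosses 0 for 3 genes in TAC and 1 gene in CnA.

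Set beside the other reference-gene probes, *Actb* and *Tuba1b* were among the less steady. Of the other 13 probes, 4 were called higher and 3 lower than WT in TAC, with the same counts in CnA. The remaining 6 were not called in each comparison. Of all tested probes 60.1% were called in TAC and 56.8% in CnA, so these counts alone do not set reference-gene probes apart. The log2 fold changes of the 13 ran from -2.89 (*Hsp90ab1*, a chaperone) to 0.83 (*B2m*, a subunit of MHC class I) in TAC. In CnA they ran from -1.44 to 0.76 (*Ppia*, a cyclophilin). Quantile normalization changed the counts of the 13 to 2 higher and 6 lower in TAC and to 3 higher and 5 lower in CnA. Of all tested probes, 33.4% were then called higher and 22.4% lower in TAC, and 30.1% and 23.2% in CnA. *Ppia* turned from 0.55 to -0.32 in TAC (limma, adjusted p = 0.00991) and lost its call in CnA (limma, adjusted p = 0.420), and *Gapdh* lost both calls, at 0.021 and 0.027. *Hprt*, at -0.47 and -0.53, and *Tfrc*, the transferrin receptor, at -0.69 and -0.70, were then called lower in TAC and CnA, and *Gusb*, a lysosomal enzyme, was called higher in CnA, at 0.29. *Nono*, *Tbp* and *Hsp90ab1* were called lower under both settings. *Tuba1b* had the highest change of the 15 in both models. *Actb* had the fourth lowest in TAC and, in CnA, the lowest after that of *Hsp90ab1*.

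Over all 9 arrays the SD of the scaled signal was 0.44 for *Actb*, with 9 of the 15 probes steadier, and 0.85 for *Tuba1b*, followed only by *Hsp90ab1* at 1.25. The median SD of all tested probes was also 0.44. At this scaling the steadiest were *Gk*, a glycerol kinase, at 0.10 and *Hprt*, a purine salvage enzyme, at 0.13. Within groups *Actb* had a pooled SD of 0.07, against a median of 0.21 over all tested probes. *Tuba1b* had 0.24, with a larger SD in WT than in TAC or CnA. Reference-gene probes were averaged over up to 20 spots per array, while 59694 probes had 1 spot. The SDs of reference-gene probes are therefore not directly comparable with the medians over all tested probes. The part of this averaging was not tested.

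**Figure D5:**
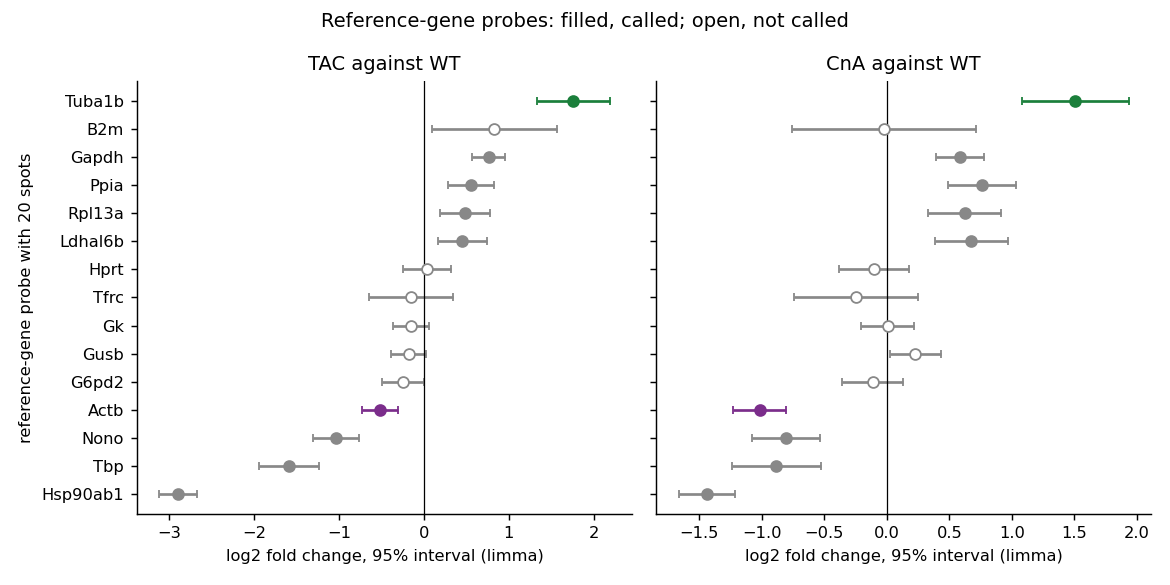
Log2 fold changes with 95% confidence intervals from limma of the 15 reference-gene probes in TAC against WT (left) and CnA against WT (right), ordered by the change in TAC, with filled points called and open points not called. *Tuba1b* is at the top in both panels, and *Actb*, *Nono*, *Tbp* and *Hsp90ab1* are the 4 probes called lower, while other probes below 0 were not called.

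The positions of the arrays ran partly with the groups. Slides 1 and 2 were told apart by the scan date in the file headers, not by a slide label. All 3 WT arrays and TAC replicate 1 lay in the first row of slide 1. TAC replicates 2 and 3 and CnA replicates 1 and 2 lay in the second row, and CnA replicate 3 lay on slide 2. Within the first row, TAC replicate 1 was below the mean of the WT arrays by -0.54 in *Actb* and above it by 1.70 in *Tuba1b*. Within the second row, CnA was below TAC by -0.48 in *Actb* and by -0.28 in *Tuba1b*, with no overlap in either gene. The share of all tested probes without overlap in that row was not computed. No row held both WT and CnA. With the row as a block, the call of *Actb* between the models (limma, adjusted p = 0.0855) and that of *Tuba1b* in CnA (limma, adjusted p = 0.0544) were lost. With 1 TAC array in the first row, the part of the row in these results was not tested further.

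Among the 103 other tested probes that could be named, those most like *Actb* over the 9 arrays were *E330014E10Rik*, *Gm20738* and *Zf12*, with a Pearson r of 0.93, 0.90 and 0.85. Those most like *Tuba1b* were *Gm13304*, *Ccl21b* and *H2ac19*, each with an r of 0.99. *Ccl21b* encodes a chemokine and *H2ac19* a histone H2A, and both have near-identical copies that a probe may not tell apart. *Ccl21b* was higher by 2.94 in TAC and by 2.74 in CnA (limma, adjusted p = 4.5e-06 and 8.8e-06), and *Zf12* was at -0.72 and -0.74 (limma, adjusted p = 0.000327 and 0.000351). The points share arrays, scaling and the split into 3 groups, and such likeness was frequent: 16.5% of the tested probes had an r over 0.9 with *Tuba1b* and 2.83% with *Actb*. Between *Actb* and *Tuba1b* r was -0.75.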

How the data were processed

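Per the file headers, arrays were read by Agilent Feature Extraction 11.0 with a 1-colour protocol and build mm9 named. The labels also name a Cy5 channel beside Cy3, but the files hold 1 channel, and the arrays were analysed as 1-colour. The deposited signal is an intensity, background-subtracted and detrended within each array, without scaling between arrays. The deposited log2 tables were made by the authors in a way not given in the sources used here; they hold neither member probe and served only to look for them. Controls and outlier-flagged spots were left out, spots averaged in log2, and each array scaled to its 75th percentile. Genes were named through RefSeq identifiers, which matched 116 of 1293 probes with an accession (assembly GRCm38, names only). Probes well above background on all 3 arrays of a group were tested with limma 3.58.1 in R 4.3.3, with 1 coefficient per group over 9 arrays; the script was tested on simulated data. Named probes are both members, the other 13 reference-gene probes and, for each member, the 3 named probes with the highest r. Members and lists were chosen with earlier results of these data known. Alternatives covered scaling, background, spots, filters, spread, blocks and each array left out. Cross-hybridization to related actin and tubulin genes was not tested. Precision was limited by 3 arrays per group.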

Additional observations from a re-analysis of the deposited data

Results flagged for a closer look

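The change of *Actb* against WT differed between the models, at -0.52 in TAC and -1.02 in CnA, with a difference CnA minus TAC of -0.50 log2 units (limma, adjusted p = 0.00798). All 3 CnA arrays were below all 3 TAC arrays, as was the case for 24.2% of the tested probes. Groups of 3 arrays are too small for the test of single outlying arrays.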

How the results depend on the processing

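Some refits, as by filter or replicate block, leave the fold change fixed. All 81 refitted *Actb* fold changes kept direction and 78 the call, whereas 5 of 39 untested values scaled by 1 other reference gene turned. Its difference between CnA and TAC lost the call at -0.50 with the error from WT only (limma, adjusted p = 0.171), at -0.48 with the row block (limma, adjusted p = 0.0855) and at -0.25 scaled to *Tuba1b* (limma, adjusted p = 0.495). Of 81 for *Tuba1b*, 75 kept direction and call, and 1 of 39 scaled by 1 gene turned. The rise in CnA lost the call at 1.43 with the row block (limma, adjusted p = 0.0544). The uncalled difference between CnA and TAC turned to 0.018 with quantile normalization, 0.027 with normexp as well and 0.25 with arrays scaled to *Actb*. At -0.25 it was called in a fit of both groups alone (limma, adjusted p = 0.0456) and without WT replicate 1 (limma, adjusted p = 0.0403); its adjusted p ranged up to 0.942. Leaving out each array gave -0.28 to -0.21 for it. The cause of lost or turned calls was not tested. All 45 differences within arrays, some also fixed, kept direction.

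Arrays with the same replicate number showed no positive correlation of their deviations, with r of -0.22 to -0.02 over 9 pairs. Weaker pairing cannot be judged from these values. With the replicate block, calls numbered 24610 for TAC and 23092 for CnA relative to WT, and 5355 between the models, and no call of either gene changed (*Actb* in TAC, limma adjusted p = 0.0079; *Tuba1b* in TAC, limma adjusted p = 0.000597). A block by slide, as told from the scan date, was not run, since slide 2 held only CnA replicate 3 and the block equals leaving it out.

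There were 26569 calls for TAC and 25111 for CnA relative to WT, and 7701 between the models. The last count moved to 731 with the error from WT only, 2898 with the row block, 12028 with the other reference probes as scale, 12018 in the fit of both groups, 15086 with array weights, 21226 with *Actb* and 4719 with *Tuba1b* as scale. Omitting WT replicate 1 gave 11869, omitting TAC replicate 1, 2 or 3 gave 4558, 4342 or 4780, and omitting CnA replicate 1 gave 4737. The count for CnA relative to WT moved to 15887 with the error from WT only and 8359 with the row block, and the F test from 28443 to 16678 and 16078. Without scaling 16.9% of the calls in TAC and 20.3% of those in CnA against WT were higher, against 65.8% and 63.8% with it, while *Actb* and *Tuba1b* kept their directions. With the other reference probes as scale it was 76.5% in TAC, and 27.9% between the models against 60.4%. Both probes were far above background. The scalings by 1 gene and the values within rows were chosen after seeing the data.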

Other observations

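Scaling all arrays to *Actb* or to *Tuba1b*, as is done when such a gene serves as the only reference, shifts every probe of a comparison by that gene's own change, so the balance of calls below follows from the changes of *Actb* and *Tuba1b*. Scaled to *Actb*, 34743 of 44224 probes were called for TAC and 36863 for CnA relative to WT, with 83.3% and 92.7% of them higher. Between CnA and TAC 21226 were called, 96.6% of them higher in CnA, against 7701 and 60.4% with the 75th percentile. Scaled to *Tuba1b*, 39548 and 37551 probes were called against WT, and 1.2% and 2.66% of these were higher. Between CnA and TAC, scaling to *Tuba1b* gave 4719 calls, of which 86.7% were higher in CnA.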
